A study of Rattus norvegicus with 6 samples.

Results

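The 9 genes described here encode the enzymes that make serine from a glycolytic intermediate (Phgdh, Psat1 and Psph) and those that pass its carbon to folate in the cytosol and in mitochondria (Shmt1, Shmt2, Mthfd1, Mthfd2, Mthfd1l and Aldh1l2). They were chosen by name, as rows whose symbol equals one of the 9, and all 9 were found among the 31038 rows of the count files. All 9 passed the filter on low counts, as did 12724 genes in all. The libraries came from rat cells labelled as myocardial cells and NRVM, whose growth text traces them to embryonic heart muscle, kept in DMEM with fetal bovine serum. The extraction text also describes feeding with dexamethasone, isobutylmethylxanthine and then insulin, a mixture used to differentiate fat cells, and whether these cells received it is unclear from the labels. Of these, 3 libraries (replicates 1, 2 and 3) were from cells given a control siRNA, and 3 from cells given an siRNA against eIF3m, a subunit of a translation initiation factor. The labels do not say whether the replicates were separate cultures, so the p-values measure the spread between these libraries, which may be technical.

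Serine synthesis starts with phosphoglycerate dehydrogenase, goes on through a transaminase and ends with a phosphatase. Serine hydroxymethyltransferases then move a carbon of serine to tetrahydrofolate, leaving glycine, and the folate enzymes oxidise, reduce or release that carbon for purines, thymidylate, methionine and mitochondrial formate. Several of these genes are known targets of the transcription factor Atf4, which is induced when amino acids run short or the endoplasmic reticulum is stressed, and they are used heavily by dividing cells.

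After eIF3m knockdown 5 of the 9 enzymes fell and 1 rose. The change in level was -22.5% for Shmt2, -20.2% for Psph, -19.2% for Aldh1l2, -16.6% for Mthfd1l, -12.3% for Phgdh and 17.0% for Mthfd1, and Psat1, Shmt1 and Mthfd2 did not pass the test. A gene is said to have risen or fallen where the edgeR quasi-likelihood test gave a Benjamini-Hochberg adjusted p under 0.05 over all 12724 genes tested. By that rule 38.7% of all genes tested passed, 17.4% higher and 21.2% lower, so single calls were common in this comparison. The libraries of the groups did not overlap in level for 6 of the 9 enzymes and for 48.6% of all genes tested, so such separation was common too. The median log2 fold change (eIF3m siRNA over control siRNA) of the 9 enzymes was -0.19, against 0.01 over all genes tested. These are bulk samples, in which fewer cells of a type and less RNA per cell cannot be told apart.

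Total counts ran from 7421598 to 8585412 in the control libraries and were 10041107, 2151671 and 7884367 after eIF3m knockdown. Values given per library are in the order of replicates 1, 2 and 3. Eif3m itself stood at 138, 136 and 141 CPM (counts relative to the library total, scaled by edgeR's TMM method) in controls, against 92.0, 84.1 and 87.6 CPM in eIF3m libraries, so that it fell by 35.9%. Among cardiomyocyte markers Tnnt2 was at 366 ± 8.87 CPM (SD, n = 3) in controls and 152 ± 8.41 CPM in eIF3m libraries. Pln fell from 25.1 ± 2.13 to 3.35 ± 1.35 CPM (log2 fold change -3.13) and Ttn from 23.7 ± 4.48 to 9.16 ± 2.63 CPM (-1.49). Myh6 (0.743 ± 0.106 CPM in controls), Myh7, Tnni3, Actn2, Ryr2, Nppa and Mb were too low to be tested. Most defining markers of the labelled cell type were thus near 0. eIF3m replicate 1 stood apart in its blood transcripts: the summed level of 10 erythroid and leukocyte markers was 6264 CPM there, 251 and 73.4 in eIF3m replicates 2 and 3, and 63.0 to 106 in controls. Most of the sum in eIF3m replicate 1 was globin, with Hba1 at 3029, Hbb at 2142 and Hba2 at 994 CPM. Without that library 4 of the 9 enzymes fell and 1 rose.

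The promoters of 7 of the 9 genes matched a RefSeq table of assembly GRCr8, a newer build than rn6, which the submitters' notes name for the files. The 250 bases before the start are shown for Phgdh and Psat1, which act in sequence, for the paralogues Shmt1 and Shmt2, and for Mthfd2, because they include enzymes that fell and enzymes that did not pass the test. Each runs 5′ to 3′ on the gene's strand, and capitals mark matches on either strand to CACGTG (the E-box bound by Myc and its relatives) or to CCAAT, a motif added after the sequences had been seen.
Phgdh (chr2:188624790-188625039, minus strand): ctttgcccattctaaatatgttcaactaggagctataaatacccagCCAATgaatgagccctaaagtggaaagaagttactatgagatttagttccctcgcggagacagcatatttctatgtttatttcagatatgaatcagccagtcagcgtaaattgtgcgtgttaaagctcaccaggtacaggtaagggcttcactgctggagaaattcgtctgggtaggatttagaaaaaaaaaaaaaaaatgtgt
Psat1 (chr1:222645409-222645658, minus strand): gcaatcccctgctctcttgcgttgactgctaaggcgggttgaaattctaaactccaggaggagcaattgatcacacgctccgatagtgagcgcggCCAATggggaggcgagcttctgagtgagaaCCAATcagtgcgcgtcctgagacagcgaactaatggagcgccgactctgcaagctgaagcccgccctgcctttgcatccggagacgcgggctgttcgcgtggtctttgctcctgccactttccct
Shmt1 (chr10:45990342-45990591, minus strand): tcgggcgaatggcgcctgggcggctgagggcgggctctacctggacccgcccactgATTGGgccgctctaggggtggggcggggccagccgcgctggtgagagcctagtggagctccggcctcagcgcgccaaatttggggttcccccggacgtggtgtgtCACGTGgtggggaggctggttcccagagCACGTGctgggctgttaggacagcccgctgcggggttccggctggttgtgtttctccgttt
Shmt2 (chr7:65249568-65249817, minus strand): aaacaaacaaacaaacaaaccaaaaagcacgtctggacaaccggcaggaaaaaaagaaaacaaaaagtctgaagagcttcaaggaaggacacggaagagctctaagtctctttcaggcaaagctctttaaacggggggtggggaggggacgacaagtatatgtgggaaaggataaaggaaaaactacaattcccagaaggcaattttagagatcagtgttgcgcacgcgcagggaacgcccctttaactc
Mthfd2 (chr4:117380351-117380600, minus strand): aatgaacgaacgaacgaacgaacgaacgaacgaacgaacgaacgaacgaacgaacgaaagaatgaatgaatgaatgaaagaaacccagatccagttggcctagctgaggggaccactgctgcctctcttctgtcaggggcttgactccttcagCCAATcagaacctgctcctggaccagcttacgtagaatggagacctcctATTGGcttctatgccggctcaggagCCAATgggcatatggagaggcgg
The composite element of C/EBP and ATF factors, written TGATGNAA, was searched on both strands of the 300-base windows (250 before and 50 after the start). It was in 0 of the 7 windows and in 3.98% of all 33469 promoter windows. The E-box was in 1 of 7, with 2 copies in Shmt1 that began 89 and 61 bases before its start, and in 6.42% of all windows. CCAAT was in 4 of 7 (Phgdh, Psat1, Shmt1 and Mthfd2, the last with 3 copies) and in 37.5% of all windows. The windows of Psph, Shmt2 and Mthfd1l held none of the 3 motifs. A match describes these letters and is no evidence that a factor binds, and a missing match says nothing about sites elsewhere.

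Of the serine synthesis enzymes the first and the last fell. Phgdh, the dehydrogenase that commits carbon to serine, was at 321, 321 and 305 CPM in controls, against 269, 296 and 269 CPM in eIF3m libraries. The groups did not overlap, with eIF3m replicate 2 nearest to the controls, and Phgdh fell by 0.19 ± 0.05 SE on the log2 scale (edgeR quasi-likelihood test, adjusted p = 0.0074). Psph, the phosphatase that releases free serine, was at 98.9, 104 and 98.9 CPM in controls and at 81.6, 90.8 and 73.4 CPM in eIF3m libraries. All 3 eIF3m libraries lay below all 3 controls, and Psph fell by 0.33 ± 0.07 SE (adjusted p = 0.00103). Psat1, the transaminase between them, was at 319, 322 and 319 CPM in controls and at 310, 307 and 322 in eIF3m libraries. Here the groups overlapped, because eIF3m replicate 3 was as high as the highest control. The log2 fold change of Psat1 was -0.03 with a 95% interval of -0.12 to 0.06 (adjusted p = 0.623).

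**Figure D1:**
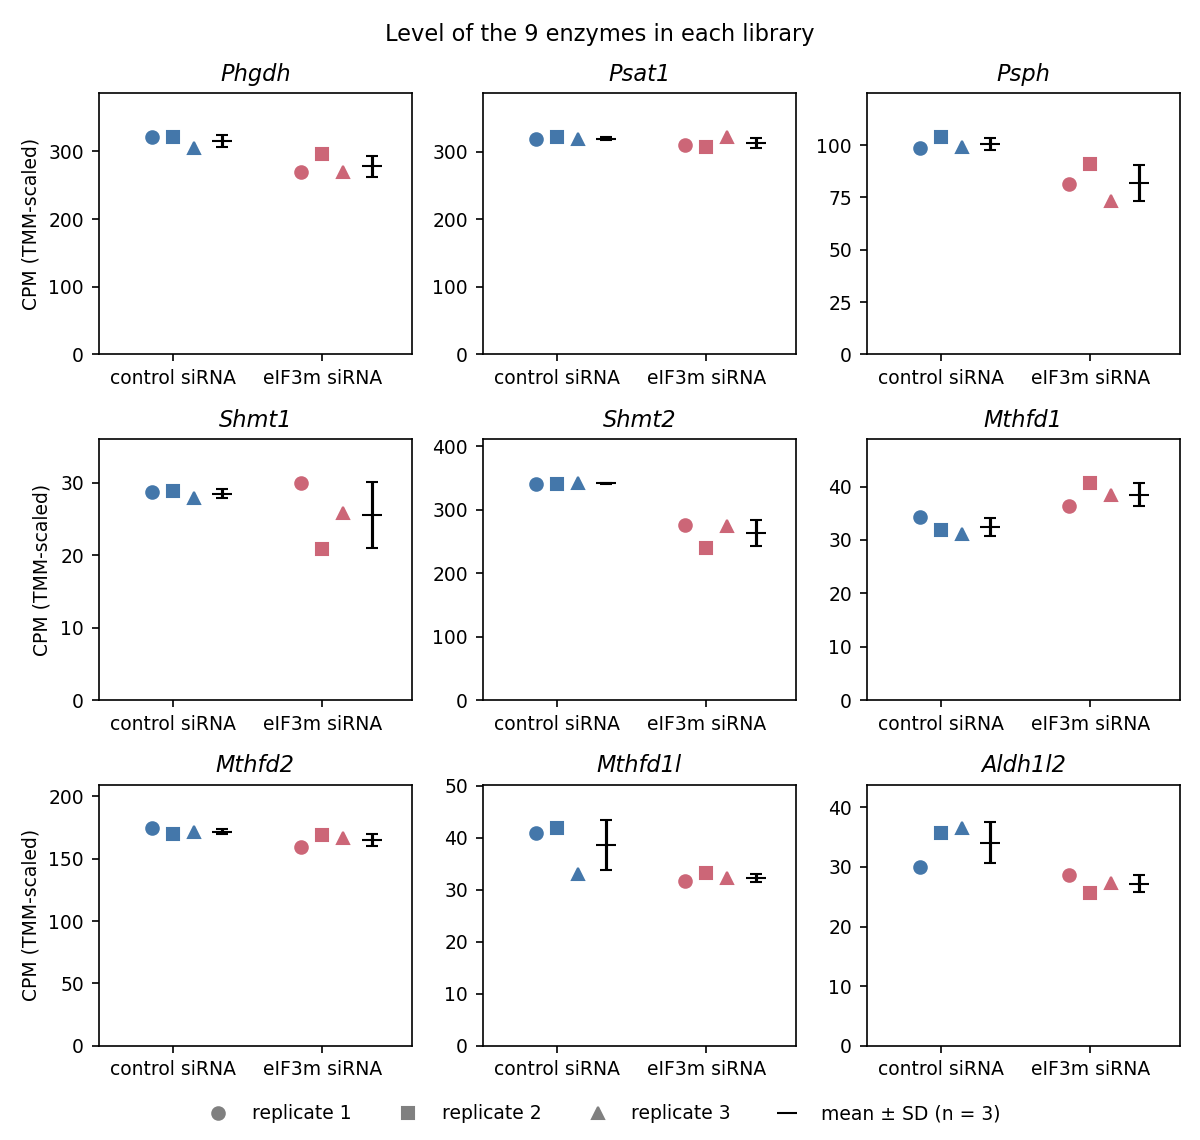
Level of each enzyme in CPM (vertical axes, from 0) in the 3 control siRNA and 3 eIF3m siRNA libraries, with replicates by symbol and the mean ± SD beside them. Shmt2 and Psph lie clearly lower in all 3 eIF3m libraries, Psat1 and Shmt1 overlap, and Mthfd1 is higher, at 36.3 to 40.7 CPM against 31.2 to 34.3 in controls.

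Of the serine hydroxymethyltransferases, Shmt2, the mitochondrial enzyme, showed the largest fall of the 9. It was at 341, 341 and 343 CPM in the controls, a spread of 1.05 CPM (SD), against 276, 239 and 275 CPM in eIF3m libraries. Every eIF3m library was far below every control, and the fall was 0.37 ± 0.05 SE on the log2 scale (adjusted p = 6.03e-05). Shmt2 passed the test under all 16 alternative settings tried. Shmt1, the cytosolic enzyme, was at 28.8, 28.9 and 27.8 CPM in controls and at 30.0, 20.8 and 25.9 CPM in eIF3m libraries. eIF3m replicate 1 was the highest of the 6 libraries and replicate 2, with 47 counts, the lowest. The log2 fold change of Shmt1 was -0.09 with a 95% interval of -0.32 to 0.14 (adjusted p = 0.55).

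The folate enzymes of the mitochondrion came next. Mthfd2, a dehydrogenase and cyclohydrolase that is high in growing cells, was at 174, 170 and 172 CPM in controls and at 160, 169 and 167 CPM in eIF3m libraries. The groups just failed to meet, 169.5 CPM in the lowest control against 168.7 in the highest eIF3m library, and a separation of this kind was seen for 48.6% of all genes tested. Its log2 fold change was -0.06 with a 95% interval of -0.16 to 0.04 (adjusted p = 0.337). Mthfd1l, the synthetase that sets formate free from mitochondrial folate, was at 41.0, 41.8 and 33.02 CPM in controls and at 31.6, 33.2 and 32.2 CPM in eIF3m libraries. Control replicate 3 lay among the eIF3m libraries. Mthfd1l fell by 0.26 ± 0.10 SE (adjusted p = 0.0456), but it did not pass when any 1 library other than control replicate 3 was left out (-0.20 to -0.27). Aldh1l2, which oxidises the formyl group to carbon dioxide, was at 30.1, 35.7 and 36.5 CPM in controls and at 28.6, 25.7 and 27.3 CPM in eIF3m libraries. The groups did not overlap, although control replicate 1 was close to eIF3m replicate 1. Aldh1l2 fell by 0.31 ± 0.10 SE (adjusted p = 0.0211), a call missed without control replicate 2 (-0.28), control replicate 3 (-0.26) or eIF3m replicate 3 (-0.30).

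Mthfd1 was the member that rose. It encodes the cytosolic enzyme with 3 activities that joins formate to folate and readies it for purine and thymidylate synthesis. Its level was 34.3, 31.9 and 31.2 CPM in controls and 36.3, 40.7 and 38.4 CPM in eIF3m libraries. All eIF3m libraries were above all controls, and the log2 fold change was 0.23 ± 0.08 SE (adjusted p = 0.0438). The adjusted p exceeded 0.05 without any 1 of the libraries other than eIF3m replicate 1 (log2 fold changes of 0.19 to 0.26), and with DESeq2 (0.22, adjusted p = 0.13), so the direction was steadier than the call.

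The falls of several enzymes depended on how libraries were scaled. With upper-quartile scaling Phgdh was at -0.12 (adjusted p = 0.0682), Mthfd1l at -0.19 and Aldh1l2 at -0.24, and these 3 did not pass. With raw library totals and no scaling factors Phgdh was at -0.042 (adjusted p = 0.521), Psat1 turned to 0.12 and passed (adjusted p = 0.0388), and Shmt1 (0.056) and Mthfd2 (0.085) changed sign. Shmt2 (-0.22) and Psph (-0.18) still fell, and Mthfd1 rose (0.37). The median of all genes itself moved, from 0.01 with TMM to 0.08 with the upper quartile and 0.16 with no scaling factors. Genes that rose made up 45.1% of calls with TMM (2220 higher, 2700 lower), 58.6% with the upper quartile (3015 higher, 2130 lower) and 71.2% with no scaling (4163 higher, 1680 lower). Relative to the median of all genes Phgdh lay at -0.20, Psph at -0.34, Shmt2 at -0.38 and Mthfd1 at 0.21. A scaling factor shifts all genes by about the same amount, so these distances hardly change with it by construction and bear on no call.

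**Figure D2:**
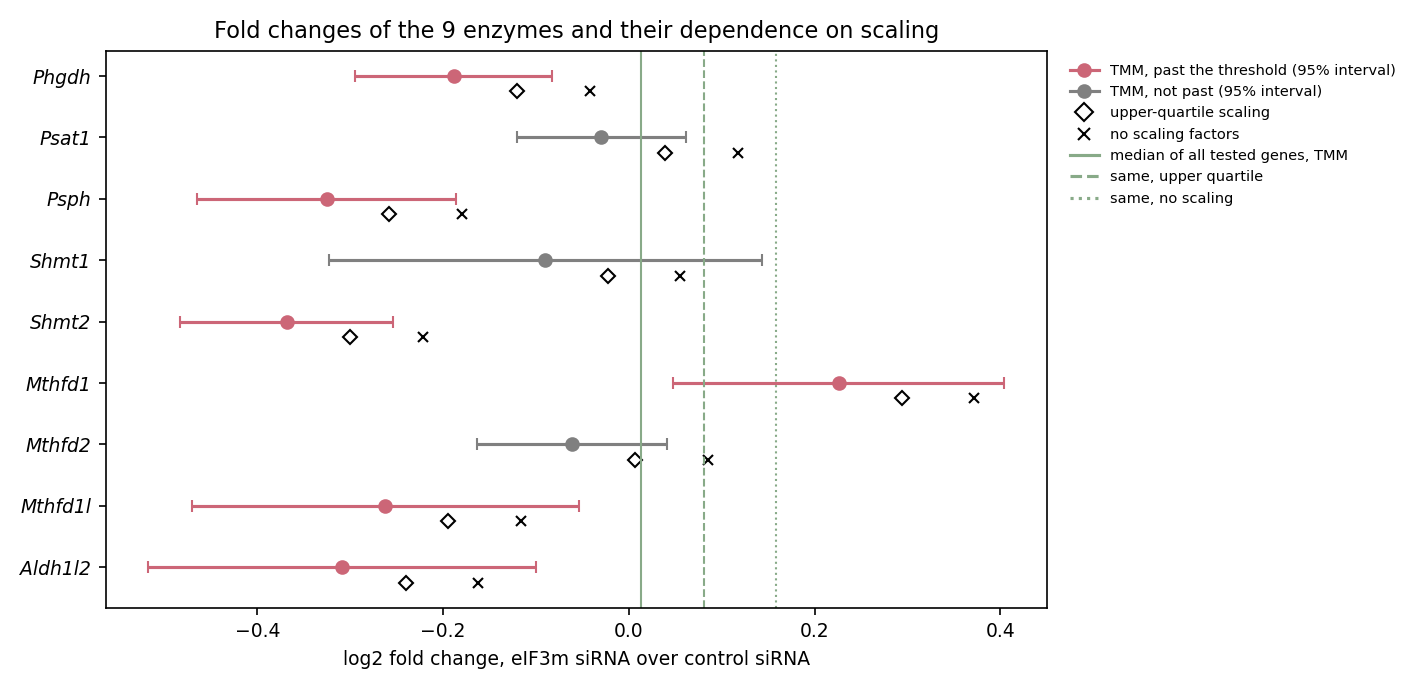
Log2 fold change of each enzyme (horizontal axis, eIF3m siRNA over control siRNA) with TMM scaling and its 95% interval, and below it the value with upper-quartile scaling (diamonds) or no scaling factors (crosses). Vertical lines give the median of all tested genes under each, at 0.01, 0.08 and 0.16, and the enzymes shift with it.

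Ratios of 2 enzymes within a library do not depend on scaling. In 6 such ratios, fixed with the lists, the level reflects transcript length as well as abundance, so its difference between groups alone is given. The log2 ratio Mthfd1l/Mthfd1 was 0.26, 0.39 and 0.08 in controls, against -0.20, -0.29 and -0.25 in eIF3m libraries. It was lower by a mean difference of -0.49, with no overlap between groups. Mthfd2/Mthfd1 was also lower in every eIF3m library than in any control (2.34 to 2.46 in controls, 2.05 to 2.13 in eIF3m libraries, difference -0.30). Mthfd1l and Mthfd2 were thus lower relative to Mthfd1. Both ratios share Mthfd1, which itself rose, so they are not separate observations. Shmt2/Shmt1 differed by -0.20 with no overlap, but by -0.12 without eIF3m replicate 1. Psph/Phgdh differed by -0.12 with no overlap, and by -0.06 without eIF3m replicate 3. Aldh1l2/Mthfd2 (-0.26) and Psat1/Phgdh (0.15) overlapped between groups. An exact two-sided permutation test over the 6 libraries gave p = 0.1 for the 4 separated ratios, the smallest value that 3 against 3 allow, and p = 0.2 for the other two. Adjusted over 6 ratios these were 0.15 and 0.2, so none could pass 0.05 in this design, and a difference between paired enzymes was not established by this test.

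**Figure D3:**
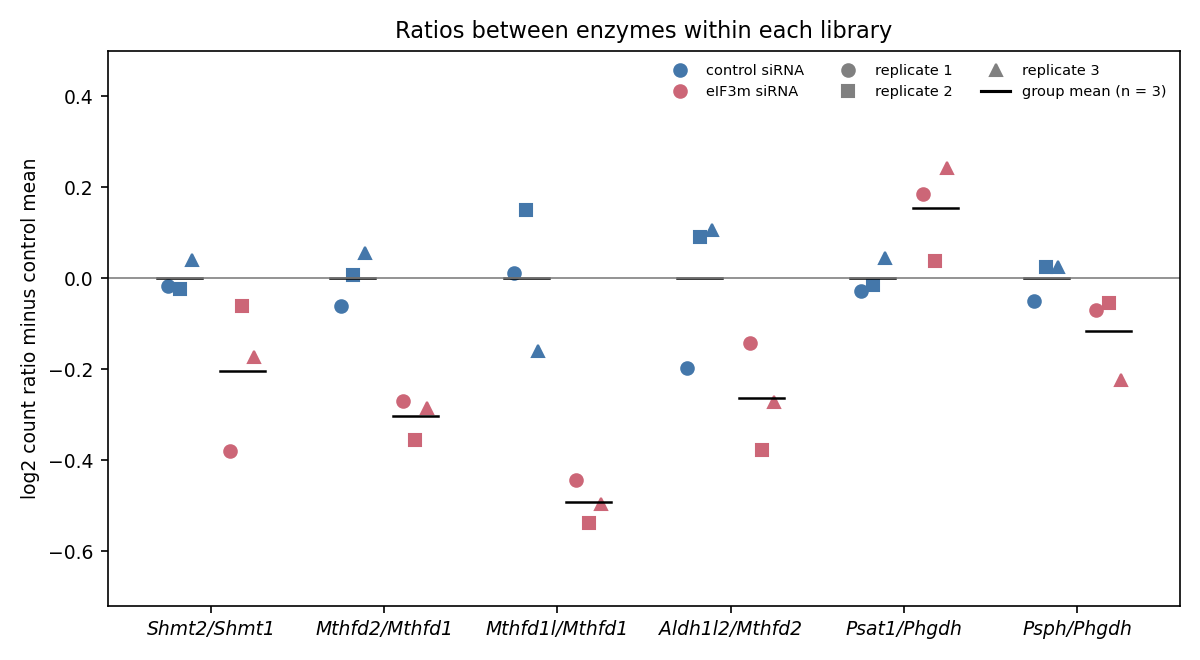
Log2 ratio of the counts of 2 enzymes in each library minus the control mean of that ratio (vertical axis), with control siRNA libraries in blue, eIF3m siRNA libraries in red and group means as bars. Mthfd1l/Mthfd1 and Mthfd2/Mthfd1 lie lower in every eIF3m library, at mean differences of -0.49 and -0.30.

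Other folate genes divided between both directions. Of 15 listed, 12 were tested, and 2 rose and 4 fell, with a median log2 fold change of 0.13 (0.01 over all genes tested). Over all genes tested 17.4% rose and 21.2% fell with TMM, the shares to set beside this and the later list counts with TMM. Of the 12724 genes tested, 3015 rose and 2130 fell with upper-quartile scaling. With no scaling factors 4163 rose and 1680 fell. List counts under those fits are to be set beside these values. The balance turned with the scaling, to 3 higher and 2 lower with the upper quartile and 5 higher and 2 lower with no scaling factors, and 2 fell without eIF3m replicate 1 or 3. Those that rose were the mitochondrial folate carrier Slc25a32 (28.4 ± 3.35 to 38.5 ± 1.13 CPM, 0.45 ± 0.09 SE) and Mthfd2l, the paralogue of Mthfd2. Mthfd2l was at 10.1, 13.6 and 10.5 CPM in controls and 16.5, 18.2 and 15.4 CPM in eIF3m libraries (0.53 ± 0.15 SE, adjusted p = 0.012). It was higher in every eIF3m library, though the call was missed without control replicate 1 (0.45) or 3 (0.46). Among those that fell were the folate transporters Slc46a1 (-0.64 ± 0.13 SE) and Slc19a1 (-0.25) and the polyglutamate synthase Fpgs (-0.23); Slc19a1 and Fpgs were named because the count was small. Tyms, thymidylate synthase, was at 8.08, 8.06 and 4.44 CPM in controls, against 8.13, 10.2 and 10.5 CPM in eIF3m libraries. Its log2 fold change of 0.46 ± 0.23 SE did not pass (adjusted p = 0.13). Aldh1l1, the cytosolic counterpart of Aldh1l2, was at 0.27 ± 0.28 SE (adjusted p = 0.473).

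Serine transport and serine-consuming genes were mostly lower. Of 18 tested, 2 rose and 14 fell (17.4% and 21.2% over all genes tested), with a median of -0.30. The count of falls was 9 with no scaling factors, where 1680 of all 12724 genes tested fell. Slc1a5, a transporter of neutral amino acids such as glutamine and serine, was at 198, 200 and 199 CPM in controls and 129, 144 and 133 CPM in eIF3m libraries, a fall of 0.57 ± 0.05 SE (adjusted p = 4.49e-07). Slc1a4, a related serine and alanine carrier, fell by 0.24, and Sfxn1, the carrier that brings serine into mitochondria, by 0.24 ± 0.07 SE; neither passed with no scaling factors. Subunits of serine palmitoyltransferase, which draws serine into sphingolipids, fell further: Sptlc1 from 66.0 ± 2.31 to 36.4 ± 0.864 CPM (-0.86) and Sptlc2 from 102 ± 5.18 to 60.5 ± 4.90 CPM (-0.72). Serinc3 and Serinc1, membrane proteins of the serine incorporator family, fell too (-1.202 and -0.54). Sds, serine dehydratase (0.65 ± 0.20 SE), and Serinc5 (0.30 ± 0.11 SE) rose and were named because of the small count. The groups overlapped for both. Sds was at 8.23, 6.65 and 6.90 CPM in controls and 11.3, 7.08 and 13.6 CPM in eIF3m libraries, with 16 counts in eIF3m replicate 2. The count of rises was 0 without control replicate 2, control replicate 3 or eIF3m replicate 3, and 1 without control replicate 1 or eIF3m replicate 1.

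In glycine cleavage and choline-derived one-carbon supply 0 rose and 2 fell of 5 tested, against 17.4% and 21.2% of all genes tested. Dld, a subunit shared with other mitochondrial dehydrogenases, fell (-0.19 ± 0.05 SE). So did Sardh, which oxidises sarcosine (-0.22 ± 0.06 SE). Under the upper-quartile and unscaled fits both calls were lost, and each fit gave 1 higher and 0 lower. Of all 12724 genes tested, 3015 rose and 2130 fell under the upper-quartile fit, and 4163 and 1680 under the unscaled fit. Of the list, 1 fell without control replicate 1 or eIF3m replicate 3, 1 rose without control replicate 3, and 2 rose without eIF3m replicate 1. Gldc, the decarboxylase of the complex, had 3 to 15 counts per library and was not tested.

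The methionine cycle, which takes a carbon from folate, counted 4 risen and 1 fallen of 13 tested, with a median of 0.10. The shares over all genes tested were 17.4% higher and 21.2% lower. Mat2a, the S-adenosylmethionine synthetase of most tissues, rose from 116 ± 3.57 to 146 ± 11.4 CPM (0.31 ± 0.06 SE), while Mat1a, its liver-type relative, fell from 40.0 ± 1.52 to 17.5 ± 2.19 CPM (-1.24 ± 0.10 SE). Mtap (0.42 ± 0.07) and Apip (0.59 ± 0.18), of methionine salvage, rose, as did Mtrr (0.28), named because of the small count; Apip did not pass without control replicate 2 (0.54) or eIF3m replicate 3 (0.51), where 2 of the list rose. Without eIF3m replicate 2, 3 of the list fell. In purine synthesis, which uses formyl groups from folate, 1 rose and 3 fell of 14, against the same shares over all genes. Ppat, the first committed enzyme, was at -0.32, Gart at -0.17 and Pfas at 0.19. Aprt, an enzyme of purine salvage that uses no formyl group, was at -0.20. Under the upper-quartile fit 2 of the list rose and 0 fell, and under the unscaled fit 4 rose and 0 fell. Of all 12724 genes tested, 3015 rose and 2130 fell under the upper-quartile fit, and 4163 and 1680 under the unscaled fit. With TMM 1 of the list fell without control replicate 2, control replicate 3 or eIF3m replicate 1, and 5 fell without eIF3m replicate 2. None rose without control replicate 2, eIF3m replicate 1 or eIF3m replicate 3, and Pfas did not pass with DESeq2 (adjusted p = 0.0652).

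Atf4 and 32 of its other targets were set beside the enzymes. Of these 33 genes, 4 rose and 21 fell (17.4% and 21.2% over all genes tested), with a median of -0.17. With no scaling factors 8 rose and 12 fell, where 4163 of all 12724 genes tested rose and 1680 fell. Many of the same genes had been described in these libraries before, so the count is no independent support. Atf4 was at 1107, 1124 and 1151 CPM in controls and at 931, 892 and 875 CPM in eIF3m libraries (-0.33 ± 0.03 SE), with no overlap. Slc3a2 (-0.65) and Slc7a5 (-0.79), which pair to carry large neutral amino acids, the lipoprotein receptor Vldlr (-0.62) and the tRNA synthetase Eprs (-0.30) fell. Those that rose were Ddit3 (0.74), Atf3 (0.70), Ddit4 (0.43) and Cebpg (0.24), so the list, like the 9 enzymes, held both directions. Myc, which is known to act on several of the 9, was at -0.08 ± 0.04 SE (adjusted p = 0.0967).

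**Figure D4:**
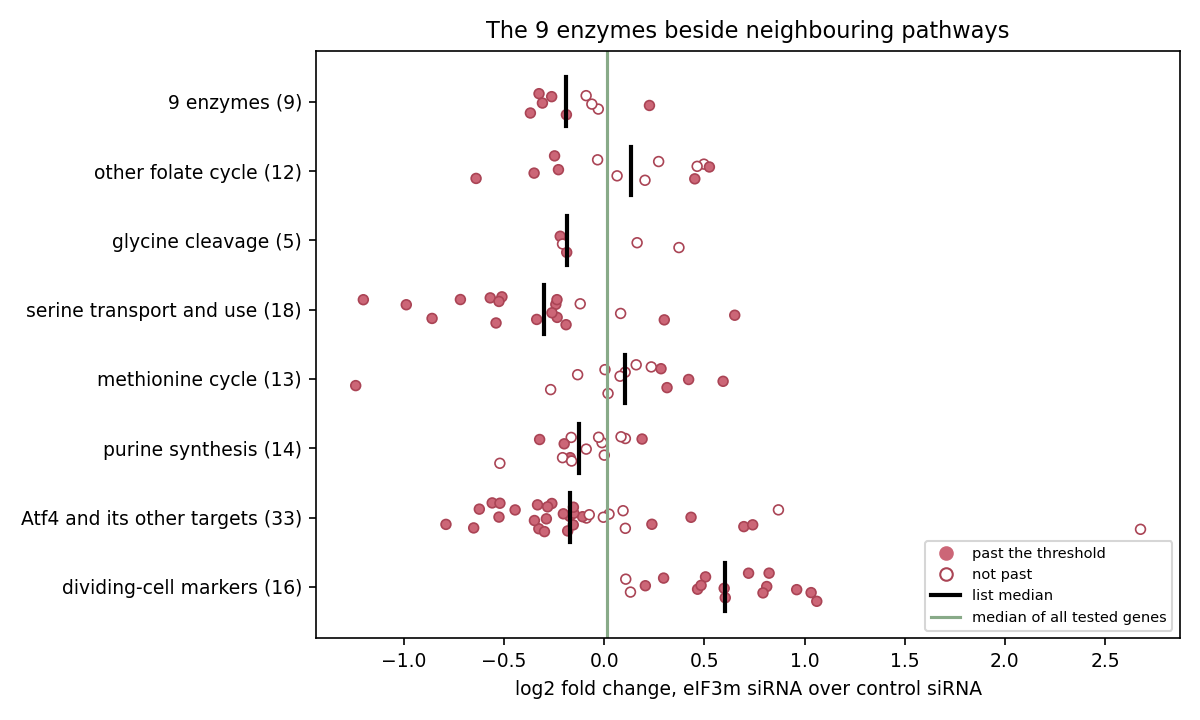
Log2 fold change (horizontal axis, eIF3m siRNA over control siRNA) of each tested gene in the 9 enzymes and in 7 related lists, with the number tested in brackets, filled points past the threshold and black bars at list medians. The enzymes have a median of -0.19, serine transport and use of -0.30 and the dividing-cell markers of 0.60, against 0.01 for all tested genes.

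Markers of dividing cells went up while most of the enzymes went down. Of 16 tested, 14 rose and 0 fell, against 17.4% and 21.2% of all genes tested. Their median was 0.60, and their summed level was 769 to 789 CPM in controls and 1133 to 1168 CPM in eIF3m libraries. Mki67 (0.81), Top2a (0.82), Cdk1 (0.60) and Birc5 (1.06), all used in mitosis, were among them. Of the 9 enzymes, Mthfd1 shared their direction. Summed markers of cardiomyocytes were 410 to 423 CPM in controls and 157 to 177 CPM in eIF3m libraries, and most of that sum was Tnnt2. Those of skeletal myoblasts were 84.7 to 90.1 and 42.9 to 49.1 CPM, and 5 of 6 tested fell, among them Myog (-1.84) and Des (-1.23). Smooth muscle and pericyte markers summed to 5669 to 5808 and 3704 to 3897 CPM, carried by Acta2 and Tagln, with 5 of 7 tested lower and 2 higher (Notch3 at 1.39 and Cspg4 at 1.18). Fibroblast markers summed to 15801 to 16300 and 17010 to 17769 CPM, carried by Col1a1, with 5 of 8 tested higher and 2 lower (Thy1 at -0.55 and Ddr2 at -0.42). Among the higher ones, Dcn (55.5, 2.21 and 1.80 CPM in eIF3m libraries) and Lum (10.3, 3.98 and 2.89 CPM) were highest in eIF3m replicate 1. Endothelial markers summed to 39.3 to 51.6 CPM in controls, and to 208, 42.5 and 34.8 CPM in eIF3m libraries. The part of such shifts in the enzymes' values was not tested.

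The genes most like Phgdh across the 6 libraries were Wrb, Hsd17b10, Dock1, Col16a1 and Iffo1, with Pearson's r of 0.990 to 0.993 in log2 CPM among 10485 genes with a mean of at least 5 CPM. With 6 libraries in 2 groups such values are a description and carry no p. Among the other enzymes r with Phgdh was 0.95 for Psph, 0.85 for Mthfd1l, 0.82 for Mthfd2, 0.67 for Shmt2, 0.59 for Aldh1l2, 0.31 for Psat1, 0.11 for Shmt1 and -0.60 for Mthfd1. Of the 8, Psph had the highest r with Phgdh, at rank 166 of the 10485 genes. Mthfd1l ranked 1348, Mthfd2 1652, Shmt2 2779 and the others lower, so such values of r were common among all genes.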

How the data were processed

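RNA sequencing was available for 6 rat libraries, grouped and numbered by their titles. The authors deposited whole-number counts, 1 per gene symbol and library, and these were raw. The build rn6 and the tools HISAT2 2.2.1, Trimmomatic 0.40, limma, DESeq2 and featureCounts are named, per the submitters' processing notes. How annotation, strand and multi-mapping reads were set was not given in the sources used here; overlapping genes and paralogues are uncertain.

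Of 31038 rows, 27 whose symbols had become calendar dates were left out (0.203% to 0.216% of counts). Genes were kept by filterByExpr (minimum count 10, minimum total 15), scaled by TMM and tested in R 4.3.3 with edgeR 4.0.16 (glmQLFit, glmQLFTest, two-sided, Benjamini-Hochberg over 12724 genes), with no covariate. SE is the log2 fold change divided by the root of F. A total of 3 counts was worth 0.287 to 1.33 CPM. Levels were not compared between genes, since transcript lengths were not used here. DESeq2 1.42.0 and limma 3.58.1 served as alternatives. The fit was tested on counts drawn for this comparison over 12382 genes, 200 of them changed: recovery was 62.9% at a 1.5-fold change and 88.8% at a 2-fold change, while unchanged genes made up 10.3% of calls, above the nominal 5%. In the data 38.7% of genes tested passed, a far larger share than the 200 changed genes of the draw. These rates therefore need not hold for the data. The enzymes changed less than 1.5-fold.

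Genes named were the 9 enzymes, Eif3m, in each related list at most 4 called genes, by lowest p, genes fixed by name (Mthfd2l, Aldh1l1, Tyms, Sfxn1, Slc1a4, Slc1a5, Slc25a32, Gldc, Atf4 and Myc), and the 5 genes most like Phgdh. Others were named after their values were seen. Some genes that this rule takes are not reported here. The members and lists were chosen with earlier results of these data known.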

Additional observations from a re-analysis of the deposited data

How the results depend on the processing

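Across 16 alternatives Shmt2 kept its direction and its call (-0.39 to -0.22), and Psph kept its call in all but the run with libraries thinned to the smallest (-0.17, adjusted p = 0.175). The number of enzymes that rose was 1, and it was 0 with DESeq2, no filter on low counts, thinned libraries and the replicate block, 2 with no scaling factors, and 0 to 1 when 1 library was left out. The number that fell was 5, and it was 2 with upper-quartile scaling, no scaling factors or thinned libraries, and 3 to 4 when 1 library was left out. Over all genes, no scaling factors gave 4163 higher and 1680 lower, and thinned libraries 1356 and 1774. Phgdh missed the threshold with upper-quartile scaling (-0.12) and no scaling factors (-0.042). Psat1 turned to 0.039 and 0.12 and Mthfd2 to 0.0063 and 0.085 in those runs, and Shmt1 to 0.056 and Myc to 0.062 with no scaling factors. Mthfd1 missed it with DESeq2 (0.22), no filter (0.21) and thinned libraries (0.26), and without 1 library was at 0.19 to 0.27. Mthfd1l missed it with DESeq2 (-0.27), limma-voom (-0.25), upper-quartile scaling (-0.19), no scaling factors (-0.12), a filter of at least 50 counts in 3 libraries (-0.24) and thinned libraries (-0.11), and without 1 library was at -0.37 to -0.20. Aldh1l2 missed it with thinned libraries (-0.25), upper-quartile scaling (-0.24) and no scaling factors (-0.16), and without 1 library was at -0.39 to -0.26. Hsd17b10, one of the genes most like Phgdh, turned to 0.017 in thinned libraries. Thinning was 1 random draw that leaves fewer counts, and fold changes moved with it. Psph went from -0.33 to -0.17 and Shmt1, which passed in neither fit, from -0.09 to -0.37. The cause of the losses was not tested.

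Replicate numbers are shared by the groups. Deviations of same-numbered libraries from their group means had correlations of 0.03, -0.0054 and 0.0077 over 12724 genes. Each mean rests on 3 libraries, so these values cannot tell whether same-numbered libraries came from one culture or batch. With the replicate block Mthfd1 (0.23) and Mthfd1l (-0.24) missed the threshold, and 2123 genes were higher and 2632 lower. The depth of eIF3m replicate 2 limits the lower-expressed enzymes: Shmt1, Aldh1l2, Mthfd1l and Mthfd1 had 47, 58, 75 and 92 counts there.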

Other observations

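Among 13 tested genes known to signal to or regulate serine and folate genes, 3 rose and 6 fell. With TMM 17.4% of all genes tested rose and 21.2% fell. With no scaling factors 5 of the 13 rose and 3 fell, where 4163 of all 12724 genes tested rose and 1680 fell. The kinases that phosphorylate eIF2 alpha, the step that raises Atf4 translation, were split. Eif2ak4, the sensor of amino acid shortage, rose from 66.2 ± 0.239 to 89.8 ± 6.93 CPM (SD, n = 3; log2 fold change 0.42 ± 0.06 SE), and Eif2ak2, the sensor of double-stranded RNA, rose by 0.34. Eif2ak1, the haem-regulated kinase, fell from 78.5 ± 4.41 to 51.4 ± 3.91 CPM (-0.60 ± 0.07 SE), and Eif2ak3, the kinase of the endoplasmic reticulum, was at -0.37. These are transcript levels and give no measure of kinase activity. Eif2ak3 was named after its values had been seen.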
